A study of Mus musculus with 10 samples.

Results

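The genes described here are the machinery that receives a new secretory protein at the endoplasmic reticulum, carries it across the membrane, removes its signal peptide and attaches its glycans. They were chosen by symbol, as a list of 34 genes, and all 34 were among the 24421 genes of a table of raw counts from mouse pancreas. All 34 were also among the 13688 genes with enough counts to be tested.

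A protein bound for secretion shows an N-terminal signal peptide as it leaves the ribosome. The signal recognition particle binds that peptide, docks at its receptor, and passes the ribosome to the Sec61 channel, with the translocon-associated protein (TRAP) complex beside it. The signal peptidase complex then cuts the signal peptide off, and the oligosaccharyltransferase moves a preformed sugar chain from a lipid onto asparagine residues. The acinar cells of the pancreas, which make the digestive enzymes, are known for a very large endoplasmic reticulum and a heavy load on this route.

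Total RNA came from a piece of the pancreas tail of female mice aged 12 weeks, with 1 library per mouse. The mice of all groups carried Ptf1aCreER, a tamoxifen-inducible Cre recombinase under the control of the acinar gene Ptf1a, and the nuclear reporter nTnG. Both copies of the insulin receptor gene Insr were unfloxed in the 3 libraries labelled Insr WT (Insrw/w). The 3 libraries labelled Insr Het (Insrw/f) had 1 floxed allele and the 4 labelled Insr KO (Insrf/f) had 2. Cre can delete a floxed allele only in cells where it is active, so other cells of the piece keep the gene, and the control mice carried the Cre as well. By the protocol there was 1 further WT mouse, not analysed here. The dose and day of tamoxifen are not given in the sources used here. Libraries are named below by genotype label and mouse number.

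Libraries held 11718559 to 19024351 gene counts. Levels are given as counts-per-million (CPM), scaled between libraries by the trimmed mean of M-values (TMM), and compared only between libraries for the same gene, since no length was divided out. Insr itself stood at 21.0, 27.8 and 40.5 CPM in WT-2404, WT-1860 and WT-2067, at 43.2, 44.2 and 28.2 in the Het libraries, and at 22.7, 33.3, 35.5 and 34.7 in the KO libraries. The groups overlapped, so the count of Insr did not separate the labels (KO against WT log2 fold change 0.09, SE 0.26, adjusted p = 0.864 in edgeR's quasi-likelihood test). A gene count does not show which exons were read. WT, Het and KO below are therefore the labels.

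The libraries differed in their acinar content. In WT-2404, WT-1860 and WT-2067 the share of counts from digestive enzyme genes was 15.7%, 58.3% and 71.5%. These genes took 71.2%, 76.1% and 71.6% in Het-2066, Het-1770 and Het-2042. In KO-2079, KO-2070, KO-2124 and KO-2126 the share was 70.8%, 77.3%, 62.3% and 77.3%. The 18 acinar markers had a median of 1.18 (log2 fold change of KO against WT), with 18 of 18 positive and 2 higher at an unadjusted p under 0.05, and their summed level was 36600 to 709000 CPM in WT, 726000 to 1040000 in Het and 397000 to 1140000 in KO (TMM scaling does not hold a library's sum fixed). The 7 macrophage markers had a median of -1.70, with 7 of 7 lower at that p, and summed to 410 to 1640 CPM in WT, 215 to 337 in Het and 127 to 475 in KO. The 7 fibroblast markers had a median of -1.70 with 4 of 7 lower (1220 to 4330 CPM in WT, 494 to 954 in Het, 438 to 1100 in KO). For the 7 ductal markers the median was -1.54 with 5 of 7 lower (715 to 1150, 338 to 581 and 346 to 573 CPM). The 6 tested plasma and B cell markers had a median of -1.56 with 5 of 6 lower (97.0 to 171, 36.3 to 51.1 and 21.9 to 67.6 CPM). The 7 islet markers had a median of 0.81 with 0 passing that p (470 to 5640, 4900 to 9760 and 3560 to 8420 CPM). The 5 adipocyte markers had a median of 0.60 with 1 of 5 higher (31.9 to 41.0, 53.3 to 69.1 and 38.6 to 81.5 CPM). Over all tested genes, 9.61% were higher and 13.9% lower in KO against WT at that p. No marker of these lists was at 0 in every library. The part of cell content in the results below was not tested, and in bulk tissue fewer cells of a type and less RNA per cell cannot be told apart.

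The members together took 0.484%, 0.541% and 0.616% of the counts that remained in WT-2404, WT-1860 and WT-2067 once the digestive enzyme genes were set aside. In the Het libraries this share was 0.643%, 0.628% and 0.648%, and in KO-2079, KO-2070, KO-2124 and KO-2126 it was 0.609%, 0.682%, 0.570% and 0.735%. All 3 Het libraries lay above the WT range, whereas KO-2079 and KO-2124 lay within it. Summed over members, the TMM-scaled levels of the WT libraries spanned 1156 to 2003 CPM, those of Het 2149 to 2360 and those of KO 1581 to 2800.

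The members' levels also differed between libraries with the same label. WT-2404 had the lowest level of all 10 libraries for 20 of the 34 members, KO-2124 for 9, and KO-2126 had the highest for 17. Within WT, 20 of 34 members followed the order WT-2404, WT-1860, WT-2067, against 22.4% of all tested genes, and that is also the order of the enzyme share. Within KO, 25 of 34 members were lowest in KO-2124, the KO library with the smallest enzyme share, against 29.7% of all tested genes. The 9 that were not lowest there were Sec61a2, Sec61b, Sec61g, Sec62, Srp9, Srp14, Srp19, Sec11a and Tusc3. The 34 members are not independent of each other, and these orders are a description.

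**Figure D1:**
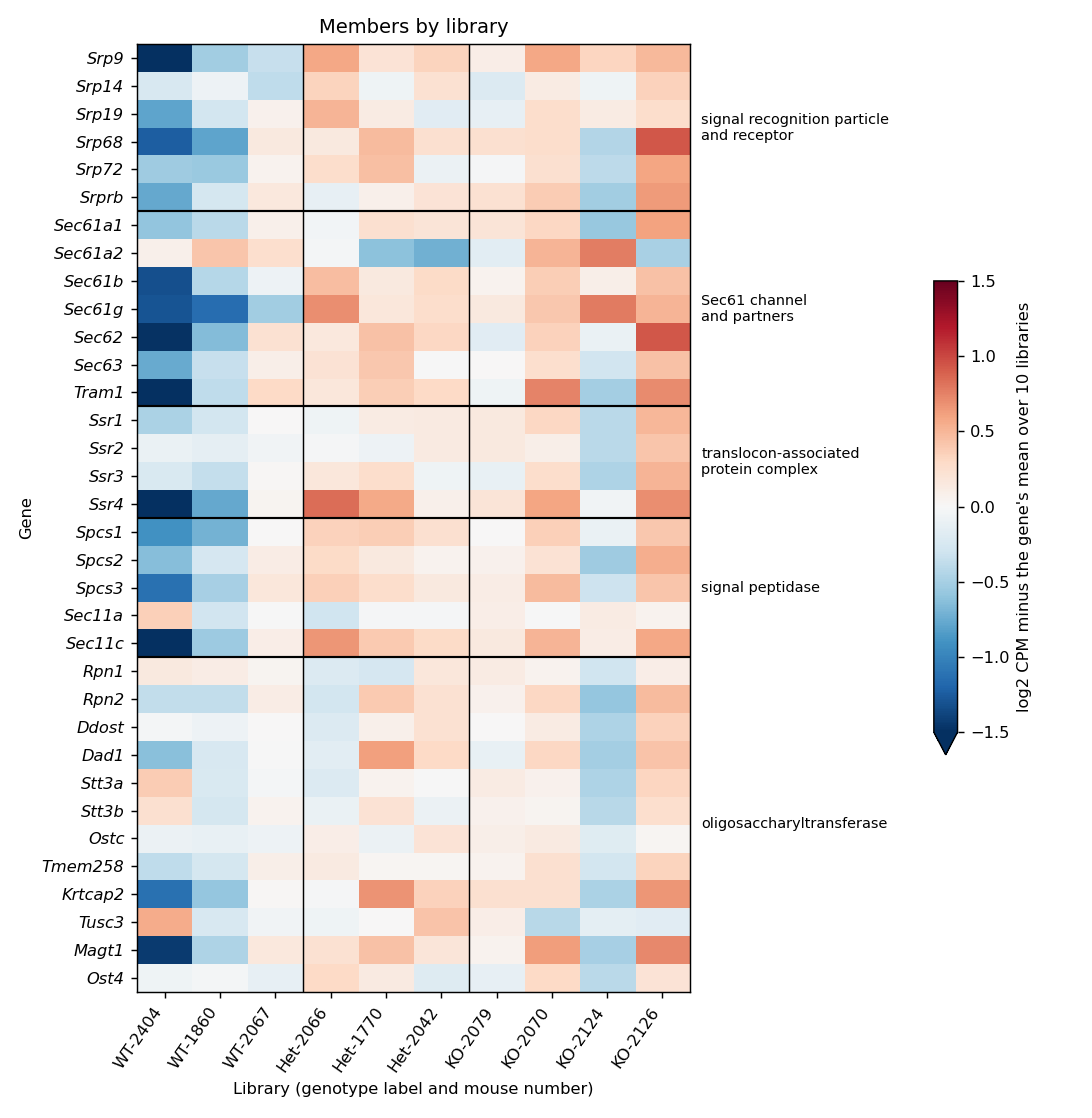
Each cell gives the TMM-scaled log2 CPM of a member (vertical axis, grouped by role) in a library (horizontal axis, grouped by genotype label), minus the mean of that gene over the 10 libraries; values below the scale's lower end take its darkest blue. WT-2404 is lowest for 20 of 34 members and KO-2126 highest for 17, while the catalytic oligosaccharyltransferase genes Stt3a and Stt3b are not low in WT-2404.

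None of the 34 members passed an adjusted p under 0.05 in KO against WT, and neither did any other gene (0% of 13688 called, smallest adjusted p 0.116, edgeR quasi-likelihood with Benjamini-Hochberg adjustment over all tested genes). At an unadjusted p under 0.05, 8 members were higher, against 9.61% of all tested genes, and 0 were lower, against 13.9%. In 4 members the KO range lay above the WT range without overlap (Sec61g, Srp9, Sec61b and Sec11c), against 6.74% of all tested genes. The median log2 fold change of the members was 0.42 with 29 of 34 positive, beside 0.03 and 51.9% over all tested genes. DESeq2 called Sec61g and Srp9 higher, with 2.15% of all genes called higher.

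In Het against WT 0 members and 0% of all genes passed the adjusted threshold (smallest adjusted p 0.184, edgeR). At an unadjusted p under 0.05, 7 members were higher, against 8.26% of all tested genes, and 0 were lower, against 11.6%. The Het range lay wholly above the WT range in 9 members (Sec61g, Srp9, Sec61b, Spcs1, Ssr4, Srp68, Sec11c, Magt1 and Srp14), against 11.3% of all tested genes. It lay wholly below in 1 member, Sec61a2, against 13.5%. The members' median log2 fold change was 0.41, again with 29 of 34 positive. DESeq2 called Sec61g and Srp9 higher, with 1% of all genes called higher. This comparison shares its WT libraries with KO against WT, so the likeness of the values is not independent.

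Between KO and Het the members were close. The median log2 fold change was -0.02 with 15 of 34 positive. By edgeR, 0 members and 0% of all genes passed the adjusted threshold (smallest adjusted p 1), and 0 members had an unadjusted p under 0.05 against 0.752% of all genes. DESeq2 called 0 members. Fold changes of the members ran from -0.29 for Tusc3 (SE 0.24) to 0.67 for Sec61a2 (SE 0.37). A p that misses the threshold does not show equal levels. For Sec61g the interval of 2 SE around the KO against Het value reached from -0.38 to 0.55, and for Ssr4 from -0.98 to 0.69.

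With Het and KO libraries joined against WT (the mean of the Het and KO groups minus WT), 0 members and 0% of all genes passed the adjusted threshold. The smallest adjusted p was 0.0597 in edgeR, a value that Sec61g and Srp9 shared. At an unadjusted p under 0.05, 12 members were higher, against 11.7% of all tested genes, and 0 were lower, against 16.5%. Sec61g, Srp9, Sec61b and Sec11c were higher in 7 of 7 floxed libraries than in any WT library, 4 of 34 members against 3.99% of all genes. For these 4 the exact two-sided permutation test over mice gave p = 0.00833, the smallest that 3 libraries against 7 allow. Picking genes by their ranges largely fixes that p in advance, and it is not adjusted over genes. DESeq2 called 5 members higher (Sec61g, Srp9, Sec61b, Ssr4 and Spcs1), with 4.19% of all genes called higher.

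These directions depend on how libraries are scaled. When libraries were scaled to their counts outside the enzyme genes, the median of all tested genes in KO against WT moved to -0.25, and 21 of 34 members instead of 29 were higher in KO, with a median of 0.14. When they were scaled to total counts alone, the median of all genes was -1.17, and 4 of 34 members were higher, with a median of -0.76. Those 4 were Sec61g, Srp9, Ssr4 and Sec11c, which were positive under all 3 scalings for both KO and Het against WT. For Het the other scalings gave 19 and 4 of 34 members higher, beside all-gene medians of -0.36 and -1.36. Relative to the median of all genes the count in KO moved less, with 28, 28 and 27 of 34 members above it under TMM, the enzyme-free total and the total alone. The members' median lay 0.39, 0.39 and 0.41 above that of all genes. Fold changes below are under TMM.

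The number of members past the unadjusted threshold moved with single libraries. Without WT-2404, 3 members were higher in KO at an unadjusted p under 0.05 (4.13% of all genes), with a median of 0.25. Without WT-1860 there were also 3 (6.54% of all genes). Without WT-2067 there were 17 (15.6% of all genes), and 10 of them passed the adjusted threshold in edgeR: Sec61b, Sec61g, Sec62, Ssr4, Srp9, Srp68, Spcs1, Spcs3, Sec11c and Krtcap2. In that fit 1932 of 14172 tested genes passed the adjusted threshold, 881 of them higher in KO. Leaving out KO-2124 gave 14 (11.9% of all genes), and leaving out KO-2070 or KO-2126 gave 4 (6.23% and 6.17% of all genes).

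**Figure D2:**
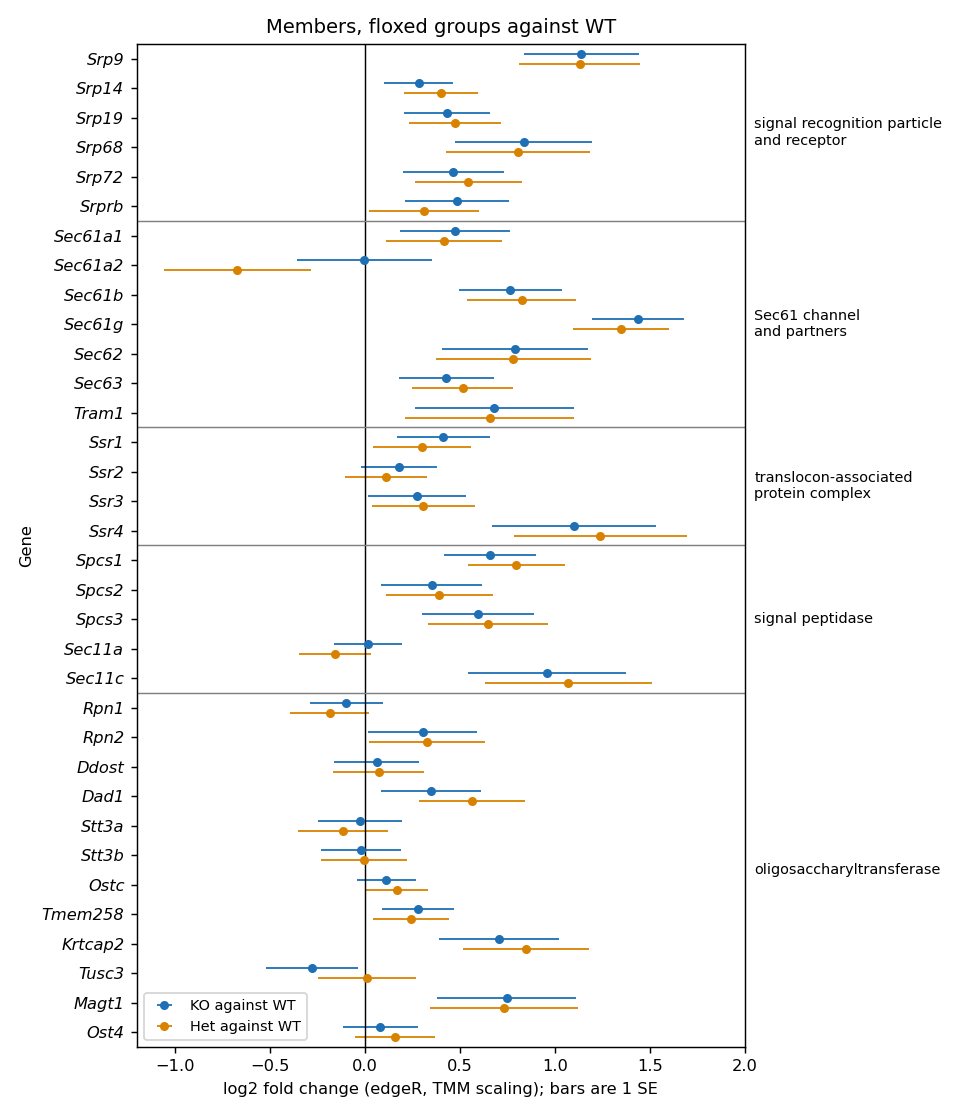
Points give the TMM-scaled log2 fold change of each member (vertical axis, grouped by role) in KO against WT (blue) and Het against WT (orange), with bars of 1 SE from edgeR. Sec61g, Srp9 and Ssr4 lie above 1 in both comparisons, which share the WT libraries, while Stt3a, Stt3b, Ddost and Rpn1 lie near 0.

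The members fall into 5 groups by role. Comparing KO with WT, the median log2 fold change was 0.48 for the 6 genes of the signal recognition particle and its receptor, 0.68 for the 7 genes of the Sec61 channel and its partners, 0.34 for the 4 TRAP genes and 0.59 for the 5 signal peptidase genes. It was 0.10 for the 12 oligosaccharyltransferase genes. The numbers higher at an unadjusted p under 0.05 were 2 of 6, 2 of 7, 1 of 4, 2 of 5 and 1 of 12 in the same order. Of all tested genes 9.61% were higher at that p. In Het against WT the medians were 0.51, 0.66, 0.31, 0.65 and 0.16. Whether the groups differ from each other was not tested.

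Sec61g, the gamma subunit of the channel and one of its small tail-anchored chains, gave the smallest p of all members. On GRCm38 it spans chr11:16500530-16508484 on the - strand. Its level was 4.78, 5.31 and 8.21 CPM in WT-2404, WT-1860 and WT-2067, 19.0, 13.2 and 14.1 CPM in Het-2066, Het-1770 and Het-2042, and 13.0, 15.5, 20.2 and 16.8 CPM in KO-2079, KO-2070, KO-2124 and KO-2126. All 7 floxed libraries were above all 3 WT libraries, and the highest KO level was in KO-2124, where 25 members were at the lowest KO level. Its log2 fold change was 1.44 (SE 0.24, unadjusted p = 5.51e-05, adjusted p = 0.116, edgeR) for KO against WT and 1.35 (SE 0.25, adjusted p = 0.184) in Het against WT. Leaving out 1 library at a time kept it between 1.28 (without WT-2404) and 1.71 (without WT-2067) in KO against WT. WT-2067, Het-2066, Het-2042 and KO-2079 had enzyme shares of 71.5%, 71.2%, 71.6% and 70.8%, and in these Sec61g stood at 8.21, 19.0, 14.1 and 13.0 CPM. Other members differed in these libraries, with Srp9 at 44.1, 83.6, 70.4 and 59.9 CPM and Sec62 at 142, 136, 151 and 108. Only 1 of them is a WT library, and the part of the enzyme share was not tested. Of the 50-base stretches of the Sec61g transcript, 44.4% also occur in 5 other annotated genes (Gm10177, Gm11575, Gm14989, Gm16412 and Gm17756), so its count is uncertain to that extent.

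Sec61b, the beta subunit, stood at 20.6, 38.2 and 49.1 CPM in WT, 70.9, 57.0 and 62.9 in Het, and 53.4, 66.4, 54.6 and 70.0 in KO, with libraries in the same order as above. WT-2404 was far below the other WT libraries, and the ranges did not overlap. Its log2 fold change in KO against WT was 0.77 (SE 0.27, adjusted p = 0.137, edgeR), and 0.47 without WT-2404. Of its 50-base stretches 41.0% occur in 3 other annotated genes.

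Sec61a1 is the pore-forming alpha subunit of the channel, and Sec61a2 is its paralogue. Sec61a1 stood at 81.2, 92.8 and 129 CPM in WT, 119, 145 and 140 in Het, and 140, 152, 82.6 and 187 in KO. KO-2124 fell among the WT values, so the ranges overlapped (log2 fold change 0.48, SE 0.29, adjusted p = 0.323, edgeR, and 0.31 without KO-2126). Sec61a2 had few counts, 17 to 152 per library, and stood at 2.54, 3.23 and 2.88 CPM in WT, 2.37, 1.58 and 1.47 in Het, and 2.16, 3.43, 4.10 and 1.72 in KO. All 3 Het libraries were below WT, while KO libraries lay on both sides (log2 fold change 0.00 in KO against WT, interval of 2 SE from -0.71 to 0.71; -0.67, SE 0.39, adjusted p = 0.329, in Het against WT). It overlaps Nudt5 on the other strand, and 35.8% of its 50-base stretches also occur there.

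Sec62 and Sec63 are partners of the channel, the former needed for small precursor proteins and the latter a membrane anchor for the chaperone BiP. Sec62 stood at 43.4, 77.2 and 142 CPM in WT, 136, 165 and 151 in Het, and 108, 154, 113 and 231 in KO. WT-2067 lay inside the floxed range (log2 fold change 0.79, SE 0.39, adjusted p = 0.233, edgeR). The fold change was 0.45 without WT-2404, 1.34 without WT-2067 and 0.51 without KO-2126. Sec63 averaged 45.7 ± 13.2 CPM in WT (SD, n = 3), 65.2 ± 9.18 in Het (n = 3) and 61.4 ± 13.2 in KO (n = 4). Tram1, a membrane protein beside the channel, averaged 92.1 ± 54.0, 145 ± 10.2 and 148 ± 57.6 CPM in the same groups. In both genes the KO range overlapped the WT range.

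Srp9 belongs to the Alu domain of the signal recognition particle, which slows elongation while the ribosome is brought to the membrane. It spans chr1:182124737-182132407 on the + strand (GRCm38). It stood at 16.5, 39.0 and 44.1 CPM in WT, 83.6, 64.3 and 70.4 in Het, and 59.9, 83.7, 69.8 and 78.1 in KO. All 7 floxed libraries were above WT-2067, the highest WT library. In KO against WT its log2 fold change was 1.14 (SE 0.30, adjusted p = 0.116, edgeR) and 1.13 in Het against WT (SE 0.32, adjusted p = 0.184). Without WT-2404 the KO value was 0.80, and without WT-2067 it was 1.40. Of its 50-base stretches 15.5% occur in Gm13736, and Gm17968 overlaps it on the other strand. Srp14, its partner in that domain, averaged 16.7 ± 1.77 CPM in WT, 22.0 ± 2.99 in Het and 20.4 ± 3.38 in KO (log2 fold change 0.28, SE 0.18, adjusted p = 0.348).

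Srp68, which forms a pair with Srp72 on the particle's RNA, stood at 26.8, 36.4 and 69.9 CPM in WT, 69.9, 87.8 and 74.5 in Het, and 74.5, 75.4, 46.4 and 120 in KO. Its Het range began just above the WT maximum and its KO range overlapped WT through KO-2124 (log2 fold change 0.83, SE 0.36, adjusted p = 0.189, edgeR), with 0.56 without WT-2404 and 1.33 without WT-2067. Srp72 averaged 43.1 ± 10.8 CPM in WT, 62.8 ± 11.6 in Het and 59.6 ± 17.1 in KO. Srp19, needed for the assembly of the particle, stood at 11.7, 16.7 and 21.1 CPM in WT, 28.7, 21.9 and 18.0 in Het, and 18.6, 24.2, 22.0 and 24.2 in KO. Srprb, the membrane-bound subunit of the receptor, averaged 18.0 ± 5.59, 22.2 ± 2.55 and 25.2 ± 7.65 CPM. Srp19 and Srprb overlapped between WT and the floxed groups. Of the 50-base stretches of Srprb 27.8% occur in Gm20425, which overlaps it on the same strand.

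In the TRAP complex, which helps some signal peptides open the channel, Ssr4 had the largest fold change. It spans chrX:73787028-73790830 on the + strand (GRCm38). It had the largest number of counts of all members and stood at 33.7, 89.0 and 156 CPM in WT, 272, 225 and 160 in Het, and 173, 228, 146 and 246 in KO. WT-2404 was lowest, and KO-2124 was just below WT-2067. Its log2 fold change was 1.10 (SE 0.43, adjusted p = 0.162, edgeR) for KO against WT and 1.24 (SE 0.46, adjusted p = 0.194) in Het against WT. Without WT-2404 the KO value was 0.68, and without WT-2067 it was 1.70. The other 3 subunits of the complex had smaller fold changes. Ssr1 averaged 66.8 ± 11.4 CPM in WT and 89.0 ± 22.0 in KO, Ssr2 39.5 ± 1.26 and 44.9 ± 9.98, and Ssr3 92.1 ± 12.5 and 111 ± 31.9. In Het they averaged 82.4 ± 6.16, 42.7 ± 3.40 and 114 ± 12.6 CPM. The KO fold changes of Ssr1, Ssr2 and Ssr3 were 0.41 (SE 0.24), 0.18 (SE 0.20) and 0.27 (SE 0.26) on the log2 scale. Whether Ssr4 differs from them was not tested.

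**Figure D3:**
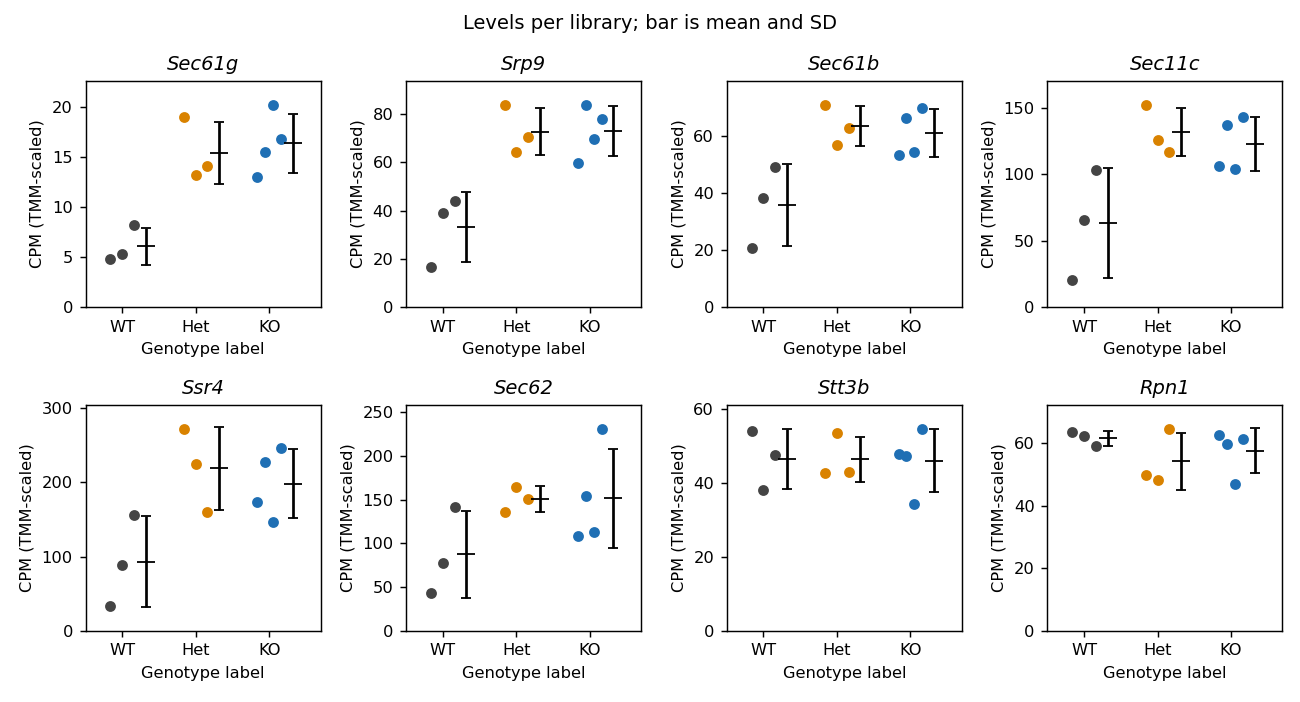
Each point is the TMM-scaled level (CPM, vertical axis from 0) of 1 library by genotype label for 8 members, in the library order used in the text, and the bar beside each group is its mean and SD. For Sec61g, Srp9, Sec61b and Sec11c the 7 floxed libraries are all above the 3 WT libraries, while for Stt3b and Rpn1 the groups overlap.

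Among the signal peptidase genes, Spcs1, an accessory subunit, stood at 24.9, 28.4 and 46.9 CPM in WT, 59.1, 60.0 and 54.8 in Het, and 46.8, 59.4, 43.3 and 61.5 in KO. The Het range was above WT, and 2 of 4 KO libraries, KO-2079 and KO-2124, were at or below WT-2067 (log2 fold change 0.66, SE 0.24, adjusted p = 0.144, edgeR), and the fold change was 0.99 without WT-2067. Spcs1 overlaps Glt8d1 on the other strand. Spcs3, another accessory subunit, stood at 29.2, 44.8 and 71.1 CPM in WT, 81.0, 76.1 and 70.1 in Het, and 68.6, 88.1, 51.0 and 84.3 in KO, and the groups overlapped. Spcs2 averaged 51.5 ± 13.4, 67.5 ± 5.50 and 65.8 ± 19.1 CPM in WT, Het and KO.

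Sec11a and Sec11c are alternative catalytic subunits of the peptidase. Sec11c stood at 20.3, 65.7 and 103 CPM in WT, 152, 126 and 117 in Het, and 106, 137, 104 and 143 in KO. The lowest KO value, in KO-2124, was just above the highest WT value, in WT-2067 (log2 fold change 0.96, SE 0.42, adjusted p = 0.193, edgeR), and leaving out WT-2404 gave a fold change of 0.52, leaving out WT-2067 one of 1.52. Sec11a stood at 20.3, 13.0 and 15.8 CPM in WT, 12.9, 15.6 and 15.7 in Het, and 16.9, 15.8, 17.2 and 16.4 in KO, with WT-2404 the highest of all (log2 fold change 0.02, interval of 2 SE from -0.34 to 0.37). Nmb overlaps Sec11a on the same strand, though 0% of the 50-base stretches of the Sec11a transcript occur in other genes. Counts of Sec11a per count of Sec11c were 0.998, 0.200 and 0.154 in WT, 0.0859, 0.124 and 0.135 in Het, and 0.160, 0.117, 0.167 and 0.116 in KO. Only WT-2404 had nearly equal counts of both, and the other 9 libraries had 0.200 or less. The mean log2 ratio in KO minus that in WT was -1.18 (exact two-sided permutation p = 0.0857, 0.343 adjusted over the 4 pairs), and -0.35 without WT-2404. A ratio of counts within a library does not depend on scaling, and for these genes of unlike length it is not a ratio of molecules.

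The oligosaccharyltransferase genes had the lowest median of the 5 groups. Stt3a and Stt3b are the alternative catalytic subunits, the first of which works beside the channel and the other after it. Stt3a stood at 55.3, 36.0 and 41.4 CPM in WT, 36.6, 43.8 and 42.1 in Het, and 46.1, 44.3, 30.7 and 52.9 in KO. Stt3b stood at 54.2, 38.1 and 47.6 CPM in WT, 42.8, 53.5 and 43.1 in Het, and 47.9, 47.4, 34.4 and 54.7 in KO. In both genes WT-2404 was at or near the top and KO-2124 at the bottom, and the groups overlapped. The intervals of 2 SE for KO against WT reached from -0.47 to 0.42 for Stt3a and from -0.44 to 0.40 for Stt3b on the log2 scale, and values within them cannot be told apart from 0 with these mice. The count ratio of Stt3a to Stt3b lay between 0.819 and 1.02 in all 10 libraries, and its log2 mean differed by -0.01 between KO and WT (exact two-sided permutation p = 0.943).

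Tusc3 and Magt1 are the alternative oxidoreductase subunits of the Stt3b complex. Magt1 stood at 23.1, 45.3 and 69.7 CPM in WT, 73.1, 84.8 and 71.2 in Het, and 65.1, 96.4, 44.4 and 103 in KO. The Het range was above WT and the KO range was not (log2 fold change in KO against WT 0.75, SE 0.37, adjusted p = 0.236, edgeR). Without WT-2404 that value was 0.41, and without WT-2067 it was 1.18. Tusc3 was highest in WT-2404, at 9.54 CPM, followed by 5.52 and 6.25 in the other WT libraries, 6.23, 6.53 and 8.78 in Het, and 6.99, 4.88, 5.86 and 5.76 in KO. Its log2 fold change in KO against WT was -0.28 (SE 0.24, adjusted p = 0.493), and 0.01 without WT-2404. The mean log2 count ratio of Tusc3 to Magt1 in KO minus that in WT was -1.03 (exact two-sided permutation p = 0.229, 0.458 adjusted over the 4 pairs), and -0.38 without WT-2404. In WT-2404 that ratio was 0.414, and in the other 9 libraries it was 0.0531 to 0.134. For Sec61a1 to Sec61a2 the ratio was 27.9 to 42.9 in WT, 46.9 to 87.7 in Het and 19.7 to 97.6 in KO. Its log2 mean was 1.05 higher in Het than in WT, with exact permutation p = 0.1, the smallest that 3 libraries against 3 allow (0.2 adjusted over the 4 pairs).

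**Figure D4:**
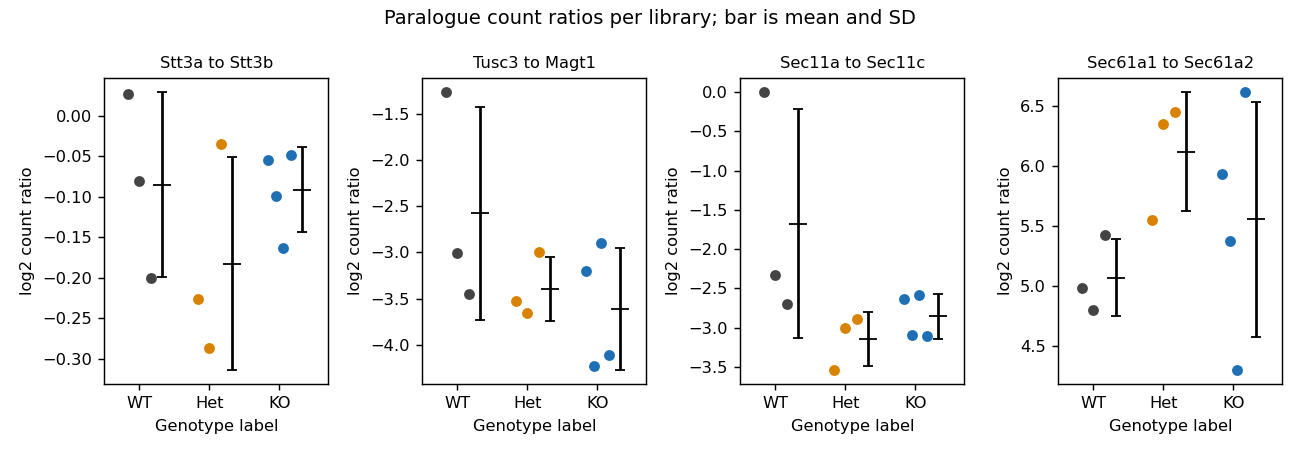
Each point is the log2 ratio of the counts of 2 paralogous members in 1 library, by genotype label, with the mean and SD of each group beside it; the vertical axes differ between panels. WT-2404 stands at the top of the panels for Tusc3 to Magt1 and for Sec11a to Sec11c, and Stt3a to Stt3b stays between -0.29 and 0.03.

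Krtcap2, which holds the Stt3a complex to the channel, stood at 21.1, 30.6 and 46.4 CPM in WT, 45.0, 73.1 and 58.0 in Het, and 53.9, 53.9, 32.9 and 72.2 in KO. It was the only oligosaccharyltransferase gene higher in KO at an unadjusted p under 0.05 (log2 fold change 0.70, SE 0.32, adjusted p = 0.202, edgeR), and KO-2124 lay inside the WT range. Without WT-2404 the fold change was 0.45. Trim46 overlaps it on the other strand. Ostc, which shares that role, averaged 22.4 ± 0.224 CPM in WT, 25.2 ± 2.60 in Het and 24.3 ± 2.28 in KO.

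The subunits common to the Stt3a and Stt3b complexes overlapped between the groups. Rpn1 averaged 61.5 ± 2.40 CPM in WT, 54.1 ± 9.04 in Het and 57.6 ± 7.31 in KO, and Rpn2 97.6 ± 19.6, 123 ± 27.7 and 121 ± 34.7. Ddost averaged 67.5 ± 1.73, 71.0 ± 10.5 and 70.6 ± 15.7 CPM, and Dad1 27.1 ± 5.74, 40.0 ± 10.5 and 34.6 ± 9.60. The small subunits Tmem258 and Ost4 averaged 15.0 ± 2.64 and 20.7 ± 0.714 CPM in WT, 17.7 ± 0.755 and 23.1 ± 3.82 in Het, and 18.3 ± 3.25 and 22.0 ± 4.73 in KO. Their ranges all overlapped between KO and WT, and the KO fold changes ran from -0.10 (Rpn1, SE 0.19) to 0.35 (Dad1, SE 0.26, and 0.18 without WT-2404 or 0.21 without KO-2126) on the log2 scale. Of the 50-base stretches of Ost4, 41.9% occur in other genes, among them Agbl5, which overlaps it.

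Members also differ in the length of their proteins. Of the 8 higher in KO at an unadjusted p under 0.05, 5 encode proteins under 150 residues, by the GENCODE M21 models: Sec61g (68 residues), Srp9 (86), Sec61b (96), Spcs1 (102) and Krtcap2 (136). Among all tested genes of that size, 818 in number, 20.4% were higher at that p, against 11.6% of the 4544 genes of 150 to under 400 residues and 7.16% of the 7552 genes of 400 and over. For members the counts were 5 of 11, 2 of 13 and 1 of 10. The members' median log2 fold changes in the 3 classes were 0.43, 0.49 and 0.18, beside 0.15, 0.04 and -0.01 for all genes. The part of length in the members' values was not tested.

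The promoters of the members were searched for elements known from genes of the unfolded protein response and the cAMP response. Through the former a loaded endoplasmic reticulum raises its own machinery. RefSeq (GRCm38.p6) gave 28 promoters, each from 250 bases before to 50 after the start of a gene, for 25 of the 34 members. The ERSE (CCAAT, 9 bases of any kind, CCACG, on either strand) was in 0 of 28, and in 0.119% of 32851 promoters of all genes. The ERSE-II (ATTGG, 1 base, CCACG) was in 1 of 28, and in 0.0365% of all. TGACGTG was in 0 of 28 (2.01% of all), and TGACGTCA in 0 of 28 (1.79% of all), either strand. The median GC content was 58.7% for members and 52.7% for all promoters. Shown is the 1 promoter with a match, that of Krtcap2 (chr3:89246223-89246522, + strand). The ATTGG and CCACG of its ERSE-II are in capitals at positions 268 to 278 of the window, after the start used for it. A second Krtcap2 window (chr3:89246188-89246487, + strand) had no match. Also shown are those of Sec61g (chr11:16508435-16508734, - strand), Srp9 (chr1:182124487-182124786, + strand) and Sec61b (chr4:47474411-47474710, + strand). These are the members with a KO range wholly above WT for which a sequence was matched. The sequences read 5′ to 3′ in the direction of the gene. The CCACG of either ERSE can overlap TGACGTG read on the other strand. A match does not show that a factor binds there, and no match says only that these letters are not in this window.
Krtcap2: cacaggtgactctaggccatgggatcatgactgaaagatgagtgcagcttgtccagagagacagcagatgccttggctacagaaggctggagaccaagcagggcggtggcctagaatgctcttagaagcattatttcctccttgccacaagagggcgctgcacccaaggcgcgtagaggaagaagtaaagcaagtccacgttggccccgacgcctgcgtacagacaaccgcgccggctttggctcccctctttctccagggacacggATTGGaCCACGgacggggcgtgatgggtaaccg
Sec61g: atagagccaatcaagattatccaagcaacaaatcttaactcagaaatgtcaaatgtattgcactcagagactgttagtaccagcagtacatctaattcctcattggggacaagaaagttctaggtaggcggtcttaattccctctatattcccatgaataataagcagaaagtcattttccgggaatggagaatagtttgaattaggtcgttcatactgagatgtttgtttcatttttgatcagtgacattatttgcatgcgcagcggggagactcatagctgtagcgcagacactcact
Srp9: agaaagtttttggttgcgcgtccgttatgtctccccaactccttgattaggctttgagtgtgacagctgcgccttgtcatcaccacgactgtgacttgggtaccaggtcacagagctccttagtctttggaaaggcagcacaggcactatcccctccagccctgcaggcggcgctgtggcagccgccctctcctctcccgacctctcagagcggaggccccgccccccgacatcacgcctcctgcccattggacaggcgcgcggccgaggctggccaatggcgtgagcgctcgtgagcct
Sec61b: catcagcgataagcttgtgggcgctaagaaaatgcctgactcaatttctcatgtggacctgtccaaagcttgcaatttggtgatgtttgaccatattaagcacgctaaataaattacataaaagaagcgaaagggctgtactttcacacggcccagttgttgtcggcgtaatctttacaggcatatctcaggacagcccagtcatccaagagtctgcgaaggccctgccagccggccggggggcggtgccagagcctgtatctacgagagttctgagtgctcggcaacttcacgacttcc

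Related genes outside the list were read in the same way. Of 25 tested genes of other targeting and insertion routes, 5 were higher and 0 lower in KO against WT at an unadjusted p under 0.05, and 0 passed the adjusted threshold (median log2 fold change 0.30). Over all tested genes 9.61% were higher and 13.9% lower at that p, and 6.74% had a KO range wholly above WT. Emc6 and Emc9, subunits of the ER membrane complex that inserts membrane proteins, averaged 15.8 ± 5.49 and 2.82 ± 0.958 CPM in WT and 28.4 ± 3.60 and 6.27 ± 1.97 in KO, with no overlap of their ranges. Their log2 fold changes were 0.85 (SE 0.22) and 1.15 (SE 0.32), with an adjusted p of 0.116 each in edgeR. Tmem208 had 0.48 (SE 0.20), with its KO range also above WT. Emc3 of the ER membrane complex had -0.28 (SE 0.16), and its KO range lay wholly below WT. Wrb and Tram2 had -0.20 (SE 0.29) and -0.43 (SE 0.66).

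Of 23 genes that assemble the sugar chain on its lipid, 4 were higher and 2 lower at that p (9.61% and 13.9% of all tested genes), 0 passed the adjusted threshold, and the median was 0.11. Dpm3, a subunit of the enzyme that makes dolichol phosphate mannose, averaged 6.02 ± 2.0 CPM in WT and 10.5 ± 0.746 in KO (log2 fold change 0.82, SE 0.24, adjusted p = 0.117, edgeR). Alg1 and Alg5 had 0.71 (SE 0.21) and 0.65 (SE 0.23). Srd5a3, which makes dolichol, averaged 6.24 ± 1.84 CPM in WT and 3.65 ± 0.860 in KO (-0.76, SE 0.29, adjusted p = 0.156), Alg8 had -0.89 (SE 0.37) and Alg9 -0.21 (SE 0.22). The KO range lay wholly above WT for Dpm3 and Alg1 and wholly below for Srd5a3. Of 13 genes of glycan trimming and lectin chaperones, 1 was higher and 0 lower at that p, beside the same shares of all genes. In that list 0 passed the adjusted threshold, and the median was 0.39. Mogs, the first glucosidase to act on the attached chain, had 0.71 (SE 0.26, adjusted p = 0.141), Lman1 0.67 (SE 0.32) and Edem3 0.84 (SE 0.41). Prkcsh had -0.38 (SE 0.25), and the chaperone Calr averaged 206 ± 29.9 CPM in WT and 160 ± 25.6 in KO (-0.36, SE 0.25, adjusted p = 0.382).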

How the data were processed

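The members and gene lists were chosen with earlier results of these data known. Per the deposited table, its values are raw counts per gene symbol, made by the authors. mm10, DRAGEN, STAR and Cufflinks are named in the submitters' processing notes, without role or version, and the use of strand in counting is not given in the sources used here, so overlapping and near-identical genes are uncertain. Per the labels' protocols, frozen tissue was pulverised, RNA came from a column kit and library preparation used a stranded mRNA kit. Reads outside genes (2.60% to 8.71% of counts) and ambiguous reads stayed out of library sizes. A further part of the genotype, shared by all groups, is not reported here.

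All 10 columns were matched to samples by genotype and mouse number, with 0 left over. Genes were kept by edgeR's filterByExpr (minimum count 10), scaled by TMM (factors 0.596 to 3.54) and tested with edgeR 4.0.16 (quasi-likelihood, robust, 1 fit over 3 groups) in R 4.3.3, with Benjamini-Hochberg adjustment over 13688 genes and a threshold of 0.05. DESeq2 1.42.0, no filter, other library scalings and leaving out each library were alternatives. The fit was also run on simulated counts, in which all libraries of a gene shared 1 mean level apart from chosen genes changed in KO. Differences in acinar content between libraries were not simulated. Ratios used a prior count of 2 and exact permutation tests over mice. At these depths 3 counts (what a count of 0 leaves possible) stand at 0.0501 to 0.395 CPM. No pair of libraries of 1 group agreed within sampling noise (chi-square per degree of freedom 26.5 to 988.1). The labels do not say that mice shared a litter or batch. Coordinates and protein lengths come from GENCODE M21 and promoters from RefSeq, both on GRCm38 (mm10). Each member is named with its levels. Values in every library are given for the 12 members with the smallest p in KO against WT, for 4 paralogue pairs and for the 3 members with the most counts. Of each related list, up to 3 genes per direction are named.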

Additional observations from a re-analysis of the deposited data

How the results depend on the processing

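Over 868 recomputed values, 40 values of single members passed the adjusted threshold where the main fit (edgeR with TMM, filtered, all 10 libraries) did not. Under enzyme-free totals and totals alone, single members were compared by fold change only, so these scalings are not in the 40. Most of the 40 came from fits by the same method without WT-2067, where 10 members were called for KO and 11 for Het and KO together. A further 48 values, mostly counts, moved, and the causes were not tested. For Het, and for Het and KO together, only members with an unadjusted p under 0.05 in the main fit were recomputed singly. For single members, libraries of the 2 groups compared were left out. Genes called against WT were 0 in the main fit. DESeq2 called 1009 (KO), 326 (Het) and 1753 (Het and KO together), of which 294, 137 and 573 were higher. Total counts as the only scaling gave 2841, 3140 and 7121, of which 0, 0 and 3 were higher. For Het and KO together 8 genes (1 higher) were called without a filter and 1409 (53 higher) with enzyme-free totals. Members called, 0 in the main fit, were 2, 2 and 5 with DESeq2, and for Het and KO together 1 without a filter and 2 with enzyme-free totals, all higher. With totals alone 11 members were called for Het and KO together and 2 for Het, all lower. Of all 13688 tested genes, 7121 and 3140 were called in these fits, nearly all lower. For KO, 5 members were higher at an unadjusted p under 0.05 with enzyme-free totals (3.68% of all genes), against 8 (9.61%). With totals alone 10 members passed that p, of which 0 were higher, beside 0.0292% of all genes higher. The median of all genes was -1.17 under that scaling, so lower values there are not particular to the members.

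Leaving out 1 library gave 0 to 1932, 0 to 1160 and 0 to 2829 genes and 0 to 10, 0 to 10 and 0 to 11 members called (KO, Het, both), the highest always without WT-2067. Members higher at an unadjusted p under 0.05 then numbered 3 to 17 (4.13% to 15.6% of all genes), 5 to 16 (4.26% to 14.7%) and 5 to 19 (5.22% to 16.9%), and 0 to 1 in KO against Het. No paired analysis was possible because the groups share no replicate number.

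In KO against Het the members' median, -0.02 with all libraries, was 0.020 without Het-1770, 0.015 without KO-2079 and 0.083 without KO-2124. In KO against WT 7 members and 1 ratio, all near 0 except Tusc3, changed sign in at least 1 alternative, with fold changes under the 2 other scalings taken relative to the median of all genes. Sec61a2 was 0.012 with enzyme-free totals and 0.12 with totals alone, and -0.27 to 0.17 on leaving out 1 library. Sec11a was -0.015 with DESeq2, -0.026 and -0.11 with those scalings, and -0.12 to 0.20. Ddost was -0.0014 and -0.061, and -0.061 to 0.18. Ost4 was -0.043 with totals alone, and -0.027 to 0.18. Leaving out 1 library gave -0.16 to 0.16 for Stt3a, -0.15 to 0.10 for Stt3b, -0.43 to 0.0062 for Tusc3 and -0.064 to 0.049 for the log2 ratio of Stt3a to Stt3b.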
